A study of Homo sapiens with 8 samples.

Results

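Receptor tyrosine kinases are the growth factor receptors through which many gliomas receive their growth signals, and 10 of them were described here by the m6A peaks on their transcripts in U251 cells: EGFR, ERBB2, PDGFRA, PDGFRB, CSF1R, KIT, KDR, FGFR1, MET and AXL. Every row of the peak list whose gene name was one of these was taken, which gave 33 of 42272 peaks, under 9 of the 10 names. KIT had none. U251 is an established human glioblastoma line. In MeRIP-seq fragmented RNA is pulled down with an antibody to N6-methyladenosine (m6A) and sequenced beside the input RNA, and a peak is a stretch of transcript with more signal after the pull-down than in the input. The cells received an siRNA against HNRNPC, which binds nuclear RNA and reads m6A, or the control siRNA si-NC, and the labels name 8 libraries in 4 groups of 2: si-HNRNPC input, si-NC input, si-HNRNPC at 48 h and si-NC at 48 h, without stating if the 48 h libraries are pull-downs. The list, named only as siRNA pull-down against siRNA input, holds a single row per peak with no value per library. It does not say which siRNA is meant. A change after HNRNPC silencing, a replicate error and a sequencing depth therefore cannot be computed from it, and the values below describe enrichment over input in transfected U251 cells.

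A receptor tyrosine kinase binds its ligand outside the cell, pairs with another receptor, and phosphorylates tyrosines on its partner that then recruit adaptors of the RAS-MAPK and PI3K-AKT pathways. EGFR and PDGFRA are the receptors most often amplified or mutated in glioblastoma, and PDGFRA, KIT and KDR lie side by side on chromosome 4, where they can be amplified together. m6A is placed on adenosines of the nascent transcript, mostly near the stop codon and in the 3′-UTR, and is read by proteins that alter the stability, splicing or translation of the mRNA.

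Of the 10 receptors 9 carried a peak, while 61.1% of 20052 protein-coding genes did. The same 9 had a peak with a false discovery rate (FDR) under 0.001, a level that 50.7% of protein-coding genes reached. FGFR1 had the most peaks, 9, followed by EGFR with 6 and ERBB2 with 5. PDGFRA, PDGFRB and MET had 3 each, CSF1R had 2, and KDR and AXL had 1 each. By the highest fold enrichment over input, which is the authors' linear ratio for the peak, the order ran CSF1R 15.3, EGFR 12.2, KDR 8.83, PDGFRA 8.36, ERBB2 7.69, FGFR1 6.54, MET 5.34, PDGFRB 4.04 and AXL 1.18. No error is attached to a fold, so neighbours in this order were not tested against each other. The support differed far more than the fold. The lowest log10 p of a receptor was -1070 in PDGFRA, -777 in EGFR, -575 in MET, -196 in ERBB2, -72.1 in KDR, -62.3 in FGFR1, -12.9 in AXL, -10.6 in PDGFRB and -4.24 in CSF1R. CSF1R thus stood at the top by fold and last by support. In 5 of the 7 receptors with at least 2 peaks the peak with the highest fold was also the one with the lowest p, and among all genes with at least 2 peaks this held in 58.8%. The highest fold had a median of 7.69 in the 9 receptors and of 8.03 in protein-coding genes with a peak.

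**Figure D1:**
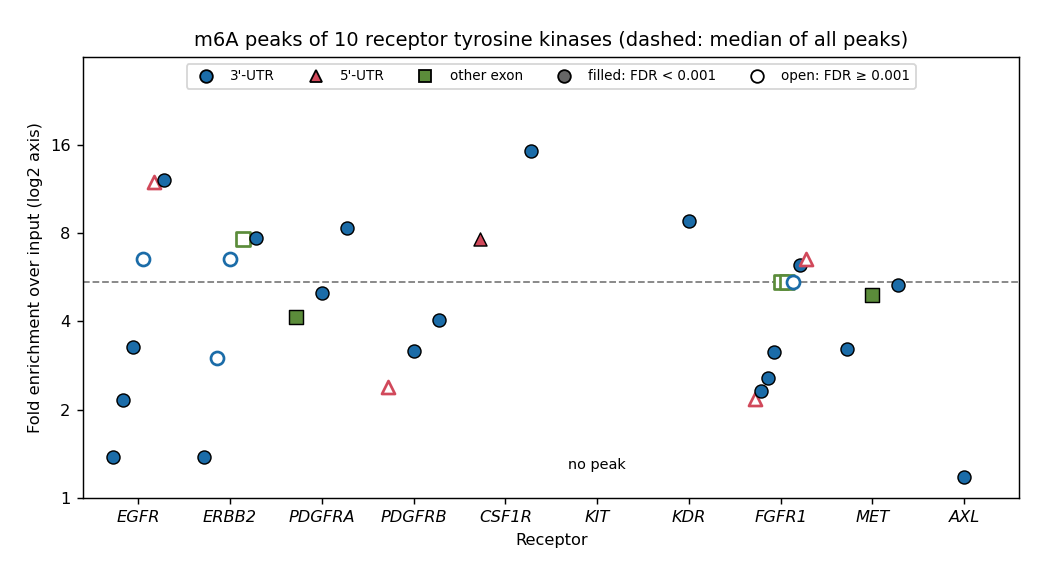
Fold enrichment over input (log2 axis) of each of the 33 peaks, by receptor. Circles are 3′-UTR peaks, triangles 5′-UTR peaks and squares peaks in other exons, filled symbols have an FDR under 0.001, and the dashed line is the median of all peaks, 5.45. Points run from 1.18 in AXL to 15.3 in CSF1R, the open symbols lie in EGFR, ERBB2, PDGFRB and FGFR1, and KIT has no peak.

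EGFR, the receptor of epidermal growth factor, carried its main enrichment in the 3′-UTR. The gene spans chromosome 7 from 55019017 to 55211628 on the plus strand, and its strongest peak, at 12.2-fold and a log10 p of -777, ran from 55203072 to 55206778 in 2 exon blocks of 5 and 1523 bases. That fold was higher than in 87.2% of all peaks and that p lower than in 98.6%. Downstream in the 3′-UTR lay a peak of 1.38-fold (log10 p -3.88, 151 bases) and one of 3.27-fold (log10 p -88.9, 480 bases) that ended 240 bases before the end of the gene. Upstream lay a 3′-UTR peak of 2.16-fold (log10 p -15.8). These 4 peaks fell within the last 9096 bases of the gene and all had an FDR under 0.001. Both other EGFR peaks were weak. One, labelled 3′-UTR, lay 40631 bases before the end of the gene at 6.54-fold (log10 p -1.31), and one, labelled 5′-UTR, reached 12.0-fold with a log10 p of only -2.69 across 3 blocks, so that folds of 12.2 and 12.0 in the same gene stood on very different support.

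ERBB2, which has no known ligand of its own and pairs with the other ERBB receptors, had 1 strong peak. It reached 7.69-fold (log10 p -196) over 1167 exon bases on chromosome 17 from 39727370 to 39730037, with its longest block, 974 bases, ending at 39728662. The RefSeq gene ends at 39728658. A second peak with an FDR under 0.001 was slight, at 1.38-fold (log10 p -22.4), and began at 39729185, past that end. The other 3 had values of 7.63-fold in an exon (log10 p -2.92), 6.54-fold (-2.24) and 3.00-fold (-1.49), and the one of 6.54-fold lay wholly inside the strong peak. Of the 5 ERBB2 peaks 4 overlap the span of MIEN1, a neighbouring gene that runs from 39728510 to 39730532, and MIEN1 itself had no row in the list. Whether peaks were called by strand is not stated, so reads of ERBB2 and MIEN1 cannot be told apart in the shared stretch.

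Among the class of receptors with a split kinase domain, PDGFRA, which binds platelet-derived growth factors and marks oligodendrocyte progenitors, had the best supported peak of all 10 receptors. It had 8.36-fold enrichment at a log10 p of -1070, lower than in 99.1% of all peaks, and covered 1078 bases in 4 exon blocks on chromosome 4 from 54288866 to 54295821, with the longest block, 697 bases, closest to the 3′ end. A row of 4.13-fold (log10 p -206) lay wholly inside it and was labelled with an exon of another gene identifier. The third PDGFRA peak, 5.00-fold (log10 p -21.8), lay 16297 bases before the end of the gene, from 54281619 to 54281948. All 3 had an FDR under 0.001.

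PDGFRB, the receptor of platelet-derived growth factor B that is prominent on pericytes, had lower folds and weaker support. Its 3′-UTR held a peak of 4.04-fold (log10 p -10.6) over 690 bases on chromosome 5 from 150114349 to 150115038 and, wholly inside it, one of 3.17-fold (log10 p -3.82). A 61-base peak of 2.38-fold (log10 p -2.70) began 33 bases from the annotated start of the gene. CSF1R, the receptor of colony-stimulating factor 1 on microglia and macrophages, starts 474 bases past the 3′ end of PDGFRB on the same strand. Its 3′-UTR peak of 15.3-fold covered 690 bases, from 150053291 to 150053980, up to the end of the gene, and its 5′-UTR peak had 7.63-fold. Both had weak p values, with a log10 p of -4.24 and -3.95, but stayed under an FDR of 0.001. PDGFRB and CSF1R together thus had no peak with a log10 p under -10.6, whereas all 3 PDGFRA rows had -21.8 or lower. KIT, the receptor of stem cell factor, had no row under its name, and no row of any gene touched its RefSeq span, from 54657957 to 54740715 on chromosome 4. The genes next to it, PDGFRA at a distance of 359712 bases and KDR at 337766 bases, both carried strong peaks. The list gives no input level, so the lack of a peak does not tell a transcript that is absent from one without m6A.

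In EGFR, CSF1R and PDGFRB the 5′-UTR peak reached the first 50 transcribed bases of an annotated start site. The sequences there are given to mark where each peak meets such a start. The bases are those of the transcript strand from the RefSeq promoter table (GRCh38.p14), in which 9 of the 10 receptors were matched. FGFR1 was not looked up, although its 5′-UTR peak from 38468594 to 38468834 also spans its RefSeq start, at 38468635. Capitals mark GGAC, the core of the most common m6A context. For EGFR and CSF1R the bases begin at the start site, and for PDGFRB they cover bases 34 to 50, the part of the window inside the peak.
EGFR, downstream start, chr7:55109839-55109868, plus strand: agttctccactGGACttcagaacaagaggg
CSF1R, upstream start, chr5:150113336-150113365, minus strand: agacagagtgtccaaaagcgtgagagcacg
CSF1R, downstream start, chr5:150086525-150086554, minus strand: aaacagccagtgcagaggagaggaacgtgt
PDGFRB, chr5:150155796-150155812, minus strand: acccaggatcgctctgt
The EGFR peak has a block from 55109723 to 55109958 that holds the downstream start, and another, from 55043993 to 55044049, upstream of it. The downstream start lies 90822 bases from the start of the full gene, which no EGFR peak covers. The CSF1R peak joins blocks of 112 and 158 bases that hold both of its annotated starts, far apart in the genome. GGAC was found once in the first 50 bases of the EGFR start and in neither of the CSF1R starts nor in the 17 bases of PDGFRB, while 18.9% of 35116 promoters hold it in those 50 bases on the transcript strand and 17.6% on the other. These letters only describe the window. All these peaks are weak, with a log10 p of -2.69 in EGFR, -3.95 in CSF1R and -2.70 in PDGFRB.

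KDR, through which vascular endothelial growth factor drives endothelial growth, had a single peak of 8.83-fold (log10 p -72.1). Labelled 3′-UTR, it covered 1018 bases in 3 blocks between 55079318 and 55082621 of chromosome 4, with 846 of them in the block nearest the end of the gene. The fold was above that of 75.5% of all peaks. MET, the receptor of hepatocyte growth factor, was the receptor whose lowest p lay outside the 3′-UTR. That peak, 4.94-fold at a log10 p of -575, covered 928 bases in exon 2 of 21 on chromosome 7 from 116699087 to 116700014. Its 3′-UTR held a peak of 5.34-fold (log10 p -481) over 808 bases that reach the end of the gene and one of 3.21-fold (log10 p -170). The folds of the 3 MET peaks were close to each other, and none passed the median of all peaks, 5.45, although each p was lower than in 90.7% of peaks or more.

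FGFR1, a receptor of fibroblast growth factors, had many peaks, most with weak support. On chromosome 8 its RefSeq span runs from 38411143 to 38468635 on the minus strand. Near the 3′ end lay 3 peaks with an FDR under 0.001, of 2.32-fold (log10 p -62.3), 3.15-fold (-12.3) and 2.56-fold (-16.7). The peaks of 3.15-fold and 2.56-fold overlap the span of LOC102723716, which had no row in the list. The fourth under that FDR, 6.26-fold (log10 p -4.52), and a 5.45-fold peak that shares bases with it (-2.86) lay beyond the RefSeq end, in a longer transcript that the list assigns to FGFR1 and that also crosses LETM2 and LOC102723716. In the body of the gene, 2 overlapping rows of 5.45-fold (log10 p -1.48 and -1.39) were labelled with the exon of RPS20P22, a ribosomal protein pseudogene. The 5′-UTR peaks had 6.54-fold (log10 p -1.31) and 2.18-fold (-1.30). The highest fold of FGFR1 was on a peak whose p was lower than in only 0.357% of all peaks, and its best supported peak had 2.32-fold. AXL, the receptor of GAS6, had the least enrichment, with 1 peak of 1.18-fold (log10 p -12.9) over 61 bases in the 3′-UTR (chromosome 19, 41259886 to 41259946). Only 0.331% of all peaks had a lower fold.

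Fold and support ranked the receptor peaks differently. With a log10 p of -50 or lower there were 10 receptor peaks from 6 receptors (PDGFRA, EGFR, MET, ERBB2, KDR and FGFR1), 30.3% of the 33, against 20.8% of all peaks. Their folds lay between 2.32 and 12.2 with a median of 5.14, and the median over all peaks at that level was 7.13. Another 16 receptor peaks had a log10 p above -5, with folds from 1.38 to 15.3 and a median of 5.86, against 4.90 over all peaks above -5. At an FDR under 0.001 there were 22 of the 33 receptor peaks (66.7%), against 62.0% of all peaks, and under 0.05 there were 27 (81.8%), against 81.6%. These shares are near those of the whole list.

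**Figure D2:**
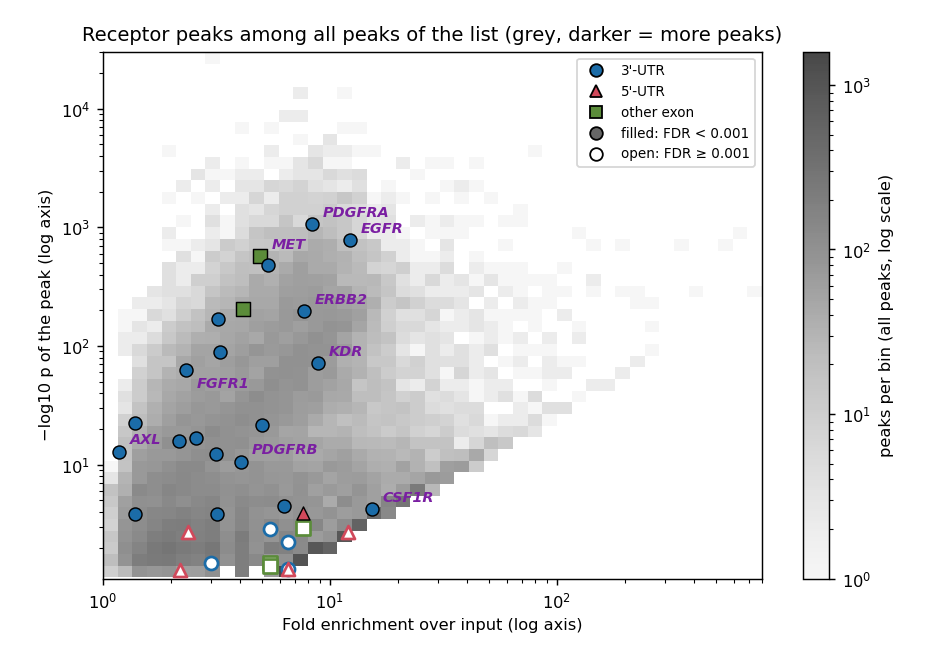
Fold enrichment over input (x, log axis) against −log10 p (y, log axis) of the 33 receptor peaks over all 42272 peaks, which are binned in grey with darker bins holding more peaks. Symbols are as in the plot of folds by receptor, and the name stands beside the peak with the lowest p of each receptor. Of the receptor points, PDGFRA (8.36-fold), EGFR (12.2-fold) and MET (4.94-fold) lie highest, CSF1R (15.3-fold) lies low and furthest right, and AXL (1.18-fold) furthest left.

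Several weak receptor peaks had values that recur across the list. The fold of 6.54 with a log10 p of -1.31, seen in EGFR and in FGFR1, stood in 1502 rows, and the 12.0-fold of EGFR with -2.69 stood in 372. The ERBB2 exon peak (7.63 with -2.92) shared its pair of values with 48 rows in all, and the 5.45 with -1.39 of FGFR1 with 56. Of the 11 receptor peaks with an FDR of 0.001 or more, 9 had a fold and p found together in another row, and of the 22 under it 1 did, that of AXL. Among all peaks 43.8% had such a recurring pair.

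The receptor peaks were mostly labelled 3′-UTR. Of the 33, 23 had this label (69.7%, 95% Wilson interval 52.7 to 82.6), 5 were labelled 5′-UTR and 5 another exon. The 3′-UTR label was on 44.1% of all peaks and 50.5% of those in protein-coding genes. A label stands for all exon blocks of a row. The PDGFRA row of 8.36-fold, with 4 blocks, is labelled 3′-UTR, and the row wholly inside it another exon. Among single-block peaks the 3′-UTR share was 73.9% in the receptors and 48.6% over all peaks. Of the 9 receptors with a peak, each had at least 1 labelled 3′-UTR. So did 29 of the 31 other receptor tyrosine kinases with a peak (93.5%) and 75.8% of protein-coding genes with a peak. At an FDR under 0.001 the 3′-UTR share was 86.4% of the 22 receptor peaks, and 50.2% of all peaks at that level. The interval takes peaks as independent and covers counting error only, and peaks of 1 gene share their transcript. Of the 23 3′-UTR peaks 21 ended within 10000 bases of the RefSeq 3′ end or past it. The label itself largely sets this, and no share over all 3′-UTR peaks is given. The exceptions were the EGFR peak of 6.54-fold and the PDGFRA peak of 5.00-fold, which lie 40631 and 16297 bases before the RefSeq 3′ end. The list nevertheless assigns them to the same transcript as the peaks close to the end. A single exon block made up 23 of the 33 peaks (69.7%), against 60.3% of all peaks. In the receptors 10 of the 33 rows shared bases with another row of the same gene, and no share over all rows is given. Counting such rows once left 28 peaks, 7 in FGFR1, 4 in ERBB2 and 2 each in PDGFRA and PDGFRB, with the other receptors as before.

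**Figure D3:**
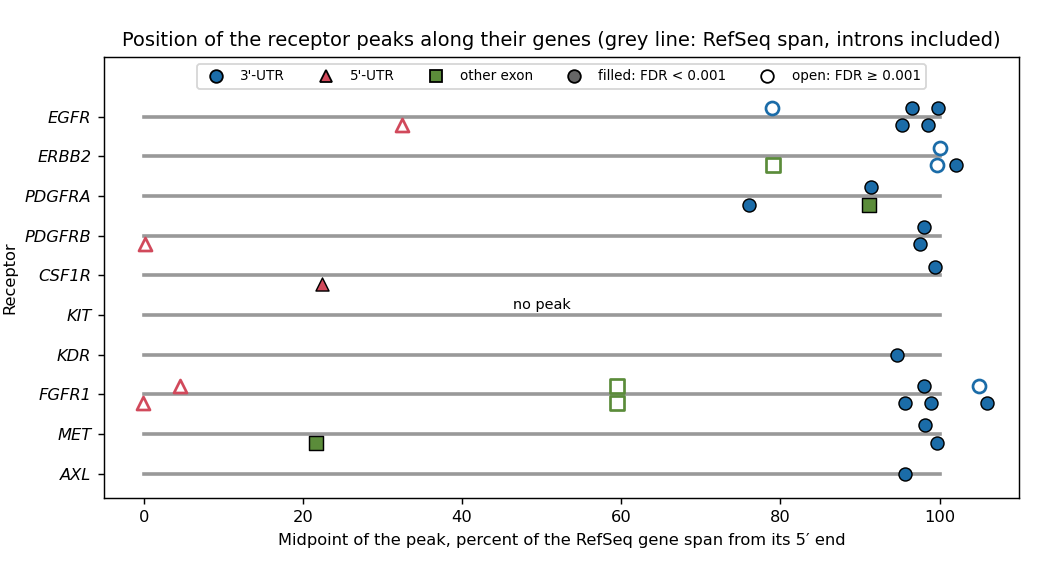
Midpoint of each receptor peak as a percent of the RefSeq gene span, introns included, counted from the 5′ end of the gene (x), with 1 receptor per line (y), points set above and below the line only to keep them apart, and symbols as in the plot of folds by receptor. Of the 23 3′-UTR peaks 21 lie at the right end, the MET exon peak lies at 21.7%, and FGFR1 and ERBB2 have peaks past 100%, which are beyond the RefSeq end.

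A peak with an FDR under 0.001 was found in 9 of the 10 glioma receptors and in 24 of the other 48 human receptor tyrosine kinases (50.0%), and any peak in 9 of the 10 and in 31 of the 48 (64.6%), where protein-coding genes had 61.1%. The highest fold of a gene had a median of 7.69 in the 9 glioma receptors and 10.3 in the 31 others, and the lowest log10 p a median of -72.1 in the 9 and -14.7 in the 31. The differences were not tested, since the receptors were chosen with results known. Of the 33 glioma receptor peaks 69.7% were labelled 3′-UTR, and of the 96 others 60.4%. The highest folds among the others at an FDR under 0.001 were 32.7 in EPHB1, an ephrin receptor, 26.1 in LMTK3 and in ERBB4, the neuregulin receptor, and 22.9 in ROR1, each with a log10 p no lower than -16.9. The most peaks at that FDR were found in IGF1R, the receptor of insulin-like growth factors, with 6, in LMTK2 and the neurotrophin receptor NTRK3 with 5 each and in the ephrin receptor EPHA4 with 4. IGF1R had a 3′-UTR peak of 7.41-fold at a log10 p of -901, between the best peaks of PDGFRA and EGFR, and the collagen receptor DDR1 (4.01-fold, log10 p -2030) and EPHA2 (3.82-fold, -1700) had lower p values than any of the 10. Receptors close to the 10 that had no peak were FLT3, of the class of PDGFRA and KIT, and FLT1 and FLT4, the relatives of KDR, while FGFR2, FGFR3 and FGFR4 had 2, 1 and 1.

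**Figure D4:**
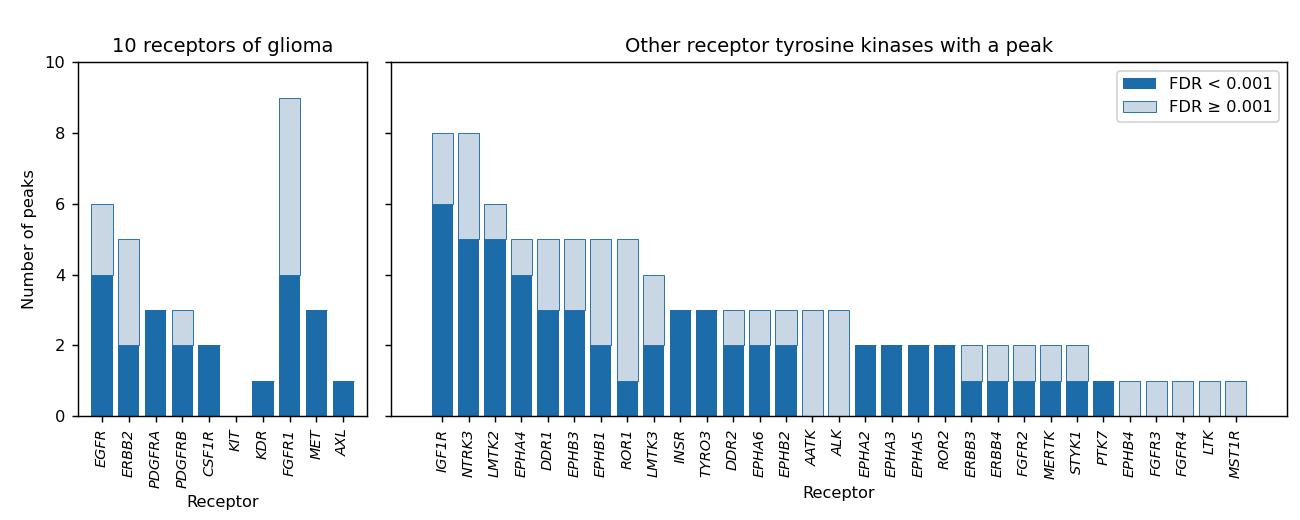
Number of peaks (y) in the 10 receptors of glioma (left) and in the 31 other receptor tyrosine kinases with a peak (right), with dark bars for peaks with an FDR under 0.001 and light bars for the rest. FGFR1 reaches 9 peaks but 4 at that FDR, the same number as EGFR, and IGF1R has 6.

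Markers of the cell line and of other cell types were looked up in the same list. The astroglial and neural stem markers SOX2, NES, VIM, GFAP and S100B all had a peak with an FDR under 0.001. Of the markers of the cells in which CSF1R and KIT are best known, PTPRC, AIF1 and ITGAM of microglia and macrophages and CPA3 and TPSAB1 of mast cells had no peak, but CD68 had 5 and CD14 had 2. Among endothelial markers, which go with KDR in tissue, CDH5 had 2 peaks with an FDR under 0.001 and PECAM1 and VWF 1 weak peak each. The pericyte markers that go with PDGFRB in tissue, RGS5, CSPG4 and ACTA2, had 1, 7 and 1 peaks. Of these 1, 3 and 0 had an FDR under 0.001. Of the oligodendrocyte markers MBP had 1 peak and MOG none, and of the neuronal markers SNAP25 had 1 weak peak and RBFOX3 none. A peak shows that a transcript was sequenced and not how abundant it was. All 8 libraries are labelled as the U251 line, and why markers of other cell types had peaks was not tested.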

How the data were processed

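Poly(A) RNA of siRNA-transfected U251 cells was fragmented, a part was immunoprecipitated with an m6A antibody and stranded libraries were sequenced. Tools listed by the submitters' processing notes are fastp and HISAT2. For the peak caller and the genome build, nothing is given in the sources used here. In 6 of the 9 receptors a transcript span of the list equals the RefSeq span of GRCh38.p14 base for base, so positions are read as GRCh38. The fold enrichment, a linear ratio of immunoprecipitate to input, and the p-value and FDR of each peak are deposited values of the authors. Every p-value is at or below 0.05.

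Rows were taken by gene name, regions as labelled, and peaks were counted per receptor. Rows sharing at least 1 base were merged for the counts given as such. RefSeq gene spans served for distances. Positions are 1-based. All 10 receptors are named. Of the other receptor tyrosine kinases and of 39 signalling genes, the 4 with the highest fold and the 4 with the most peaks at an FDR under 0.001 are named. Other genes were chosen after their values were seen. Members and lists were chosen with earlier results of these data known. No test was run, since the list has no replicates, and depth is unknown. Block arithmetic was tested on simulated data. Python 3.11.15, pandas 2.3.3, NumPy 2.4.6 and matplotlib 3.10.9 were used. Some genes of the lists are counted but not reported here by name.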

Additional observations from a re-analysis of the deposited data

How the results depend on the processing

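No paired analysis was possible because each peak has 1 value and none by library. The leave-out of single replicates was not run either. The 33 receptor peaks were 22 at an FDR under 0.001, 27 under 0.05, 30 with a fold of at least 2, 28 with overlapping rows merged (by any shared base, or by a share of 0.5 of the shorter row), 32 when found by position and 23 in a single block, and 8 or 9 receptors had a peak in each. The 3′-UTR share of 69.7% was 86.4% at an FDR under 0.001 and 88.9% with the lowest-p peak of each receptor. In the other settings it ran from 66.7% to 77.8%. The median of the highest fold, 7.69, was 5.00 with the median over the peaks of a receptor. The causes were not tested. FGFR1 had 4 peaks at an FDR under 0.001 and 5 under 0.05, ERBB2 had 2 at 0.001, and AXL had none with a fold of at least 2. By position FGFR1 had 10, MET 2 and CSF1R 1, and in a single block PDGFRA and CSF1R had 1 each and KDR none. Of the other receptor tyrosine kinases, 24 to 30 of the 31 kept a peak in the settings run. Without depth or input levels, weak peaks cannot be graded further.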

Other observations

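The genes that carry receptor signals into the cell were nearly all in the peak list. Of 39 signalling genes 37 had a peak, and 33 (84.6%) had one with an FDR under 0.001, a level that 50.7% of protein-coding genes reached. All 8 adaptor and lipid signalling genes had such a peak, among them the RAS exchange factor genes SOS1 at 10.7-fold and SOS2 at 8.19-fold. In the RAS-MAPK group 8 of 10 had a peak and 6 at that FDR. MAPK3, which encodes the kinase ERK1, had the highest fold of the signalling genes, 37.0 in a 5′-UTR peak (log10 p -12.5). At that FDR the highest folds were 9.26 in MAP2K1, 7.48 in HRAS (log10 p -567), 3.05 in BRAF and 1.15 in NRAS. The highest fold of a gene had a median of 2.83 in the RAS-MAPK group.

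In the PI3K-AKT group, to which the transcription factor gene STAT3 was added, all 9 genes had a peak and 8 had one at an FDR under 0.001, the exception being STAT3. PIK3CA, the catalytic subunit gene most often mutated in cancer, had 11.2-fold in the 3′-UTR (log10 p -450) and 24.0-fold in a weaker 5′-UTR peak (log10 p -7.10), and PIK3CB had 19.6-fold in a 5′-UTR peak (log10 p -4.75). AKT2 reached 16.0-fold in a 5′-UTR peak (log10 p -10.7), while its best supported peak had 3.16-fold (log10 p -169). It had 5 peaks at that FDR, as did NF1, which encodes an inhibitor of RAS. The highest fold of NF1 was 12.0, in a 5′-UTR peak (log10 p -12.2). The regulatory subunit genes PIK3R2 and PIK3R1 had 6 and 4, with highest folds of 4.51 and 10.5, and several PIK3R2 rows share nearly the same ends. Of the 12 inhibitor genes all had a peak, 11 of them at that FDR. Of their 38 peaks 39.5% were labelled 5′-UTR, against 15.2% in the 10 receptors, 27.7% in protein-coding genes and 23.5% of all peaks. These shares were not tested.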
